A study of Homo sapiens with 6 samples.

Results

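NF-kB is a family of dimeric transcription factors that waits in the cytoplasm, held by I-kappa-B proteins, and enters the nucleus after cytokine, stress or innate immune signals. Its dimers are built from 5 subunits. RELA (p65), RELB and REL (c-Rel) carry a transactivation domain, while NFKB1 and NFKB2 are made as the precursors p105 and p100, which are processed to p50 and p52 and which themselves act as inhibitors before processing. In the canonical branch the IKK kinases mark I-kappa-B proteins for destruction, and in the non-canonical branch the kinase NIK drives processing of p100, which frees RELB. Many inhibitors are themselves NF-kB target genes, so the pathway is known for negative feedback. It is controlled largely by protein location and degradation, which RNA levels do not measure.

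The mRNAs described here are those of the 5 subunits (NFKB1, NFKB2, REL, RELA, RELB), of the classical I-kappa-B proteins NFKBIA, NFKBIB and NFKBIE, of the atypical I-kappa-B protein NFKBIZ, and of TNFAIP3 (A20), a ubiquitin-editing enzyme that shuts off signalling to IKK. They were taken by gene name, and 10 of 10 were found among the 14538 genes of the table. Cells were HEK293T, a human embryonic kidney line, in which INTS8 carried a homozygous miniAID tag. The tag is a degron through which the plant hormone auxin directs destruction of the tagged protein, here a subunit of Integrator, the complex that cuts RNA still being made and so ends transcription, for example at genes of small nuclear RNAs. One group was 3 libraries after 48 h with 100 µM auxin and the other was 3 libraries of the same tagged cells without auxin, so that both carried the tag. Cells without the tag were not analysed here, nor is it stated how many clones the line represents.

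Every value traces to the authors' deposited table, which gives their comparison of both groups and no values per library, so each gene is given as a derived group mean with no spread between replicates. The levels are normalized counts, split into the 2 groups from the deposited mean and fold change, and where genes are compared they are given per kilobase of transcript. The numerator of the fold changes is not named in the header. It was read as auxin over no auxin by convention, and if that is wrong every rise is a fall. "Rose" and "fell" refer to an adjusted p under 0.05 by the authors' deposited table. That threshold was set here and is not the authors' own mark of changed genes. Among the members only NFKBIZ and TNFAIP3 carry that mark. The labels do not say whether libraries stem from separate cultures, and p-values therefore cover only the spread among these 6 libraries. In such bulk RNA, fewer cells of one kind and less RNA per cell cannot be told apart.

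Of the 10 mRNAs, 7 rose, 1 fell and 2 did not pass the threshold. Over all 14538 genes 27.8% rose and 28.9% fell, so that 56.7% passed in either direction. All 10 members have mean levels of 100 or more, and of the 12195 genes that do, 28.5% rose and 33.2% fell, or 61.7% in either direction. The median log2 fold change of the 10 was 0.35, against 0.00 over all genes and -0.03 over genes of at least that level. At a change of at least 2-fold, 2 of the 10 rose, against 7.88% of all genes and 6.03% of those at levels of 100 or more, and these were the feedback regulators NFKBIZ and TNFAIP3. At 1.5-fold or more NFKBIE joined them, against 13.2% and 11.3% of genes. No member fell by 2-fold or more, as 1.36% and 1.22% of genes did. Their response was the largest of the set, whereas the subunits moved by less than 1.5-fold. The share of members that rose was above the background share. The members were chosen with earlier results known and no test of the set was made.

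**Figure D1:**
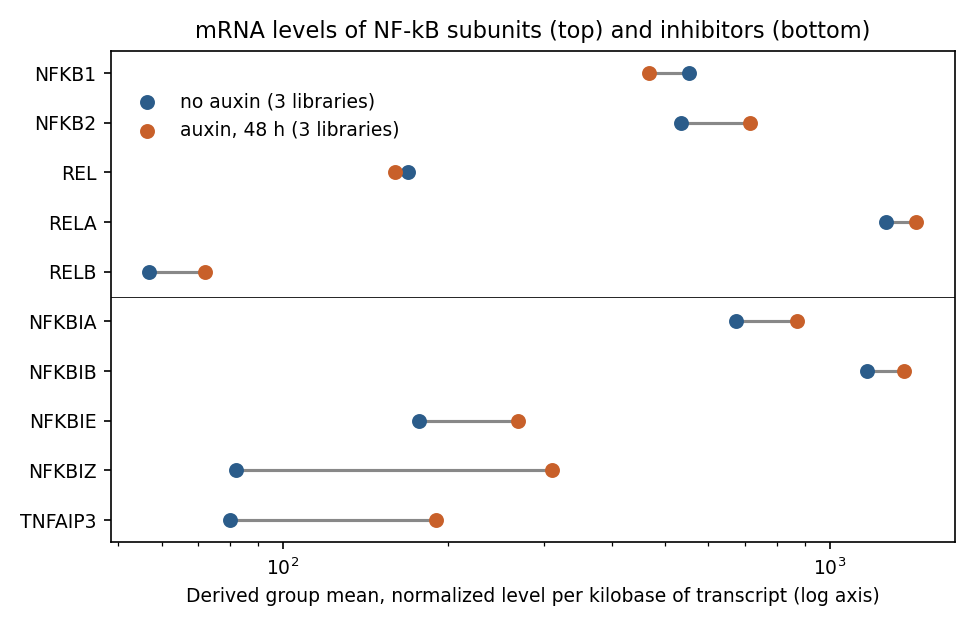
Derived group means per kilobase of transcript (log axis) for the 10 mRNAs, without auxin (blue) and with auxin (orange), 3 libraries behind each mean and no error bars because values per library were not used. NFKBIZ and TNFAIP3 show the widest gaps, from 82.1 to 310 and from 79.9 to 191, while RELA and NFKBIB are the most abundant in both groups.

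Among the subunits, RELA, the main activating partner in canonical dimers, was the most abundant. Its gene is on chromosome 11 (hg38, 65653597 to 65663090, minus strand), and exons of the lincRNA AP001362.2 overlap it on the other strand. Its derived level was 4284 without auxin and 4874 with auxin. RELA was thus slightly higher with auxin, at 1.14-fold (derived 95% interval 1.04 to 1.25, adjusted p 0.0107) by the authors' deposited table.

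REL, known best from lymphocytes, stood at 1905 without auxin and 1807 with auxin (chromosome 2, 60881521 to 60931612, plus strand). Its fold change of 0.948 (derived interval 0.834 to 1.08, adjusted p 0.510) by the authors' deposited table did not pass. The interval leaves room for a change of that size in either direction. REL shares exon sequence on the same strand with the annotated noncoding RNA AC010733.2.

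RELB, the partner of p52 in the non-canonical branch, was the least abundant member, at a derived level of 130 without auxin and 164 with auxin (chromosome 19, 45001449 to 45038198, plus strand). By the authors' deposited table RELB was 1.26-fold higher with an adjusted p of 0.0494, just inside the threshold. The derived interval, 1.03 to 1.56, was the widest of the 10 on the log2 scale, and its mean level was the lowest.

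The precursor subunits moved in opposite directions. NFKB2, which encodes p100 and p52 (chromosome 10, 102395693 to 102402524, plus strand), had a derived level of 1666 without auxin and 2234 with auxin. NFKB2 was 1.34-fold higher (interval 1.21 to 1.49, adjusted p 2.19e-07) by the authors' deposited table. NFKB1, which encodes p105 and p50 (chromosome 4, 102501359 to 102617302, plus strand), had a derived level of 2238 without auxin and 1898 with auxin. NFKB1 was the only member of the 10 to fall, to 0.848-fold (interval 0.778 to 0.924, adjusted p 4.40e-04) by the authors' deposited table.

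The precursors were also compared per kilobase of transcript. The derived level per kilobase was 552 for NFKB1 and 534 for NFKB2 without auxin, and 468 and 716 with auxin, so that the ratio of NFKB2 to NFKB1 went from 0.968 to 1.53. The ratio of RELA to NFKB1, the pair that forms the classical dimer, went from 2.30 to 3.08. No error can be given for these ratios, and the difference between the genes' changes was not tested.

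Of the classical inhibitors, NFKBIA (I-kappa-B alpha), the fast feedback inhibitor, had a derived level of 1050 without auxin and 1360 with auxin (chromosome 14, 35401511 to 35404749, minus strand). By the authors' deposited table NFKBIA was 1.29-fold higher (interval 1.17 to 1.43, adjusted p 1.65e-06). Its rise was close to that of NFKB2 and far from that of NFKBIZ.

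NFKBIE (I-kappa-B epsilon), a slower feedback inhibitor, had a derived level of 457 without auxin and 695 with auxin (chromosome 6, 44258166 to 44265788, minus strand). NFKBIE was 1.52-fold higher (interval 1.34 to 1.73, adjusted p 8.12e-10) by the authors' deposited table. It was the largest change among the classical inhibitors.

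NFKBIB (I-kappa-B beta), which is known to give sustained retention of dimers, had a derived level of 1483 without auxin and 1737 with auxin (chromosome 19, 38899666 to 38908891, plus strand). Its fold change of 1.17 (interval 0.998 to 1.37, adjusted p 0.0876) by the authors' deposited table did not pass. On the log2 scale NFKBIB had the second widest interval of the 10, after RELB. Its exons overlap those of SIRT2 on the other strand, which stood at 1.02-fold (adjusted p 0.802) by the authors' deposited table, and the sources used here do not say whether reads were counted by strand.

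Summed over the 3 classical inhibitors, the derived level per kilobase was 2020 without auxin and 2510 with auxin, or 1.24 times as much. Over the 5 subunits the sum was 2579 and 2858, or 1.11 times. The ratio of these inhibitors to subunits was 0.783 without auxin and 0.878 with auxin. NFKBIB supplied 57.9% of the inhibitor sum without auxin and 54.6% with auxin, and RELA 49.1% and 50.4% of the subunit sum. The sums have no error, and they count mRNA per kilobase, not protein.

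NFKBIZ (I-kappa-B zeta), a nuclear protein that works with p50 to turn on secondary response genes, showed the largest change. In the authors' table it lies on chromosome 3 from 101849514 to 101861022, on the plus strand. No other annotated gene overlaps that span. Its derived level was 322 without auxin and 1216 with auxin. NFKBIZ was 3.77-fold higher (log2 fold change 1.92, SE 0.09, derived interval 3.36 to 4.24 in fold, adjusted p 2.58e-107) by the authors' deposited table. Of all listed genes, 465 had a larger fold change.

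TNFAIP3 (A20) lies on chromosome 6 from 137867259 to 137883312, on the plus strand, and an annotated antisense RNA, AL357060.1, overlaps its exons. Its derived level was 373 without auxin and 889 with auxin. TNFAIP3 was 2.39-fold higher (log2 fold change 1.25, SE 0.10, derived interval 2.09 to 2.72 in fold, adjusted p 3.42e-37) by the authors' deposited table. There were 969 listed genes with a larger fold change.

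**Figure D2:**
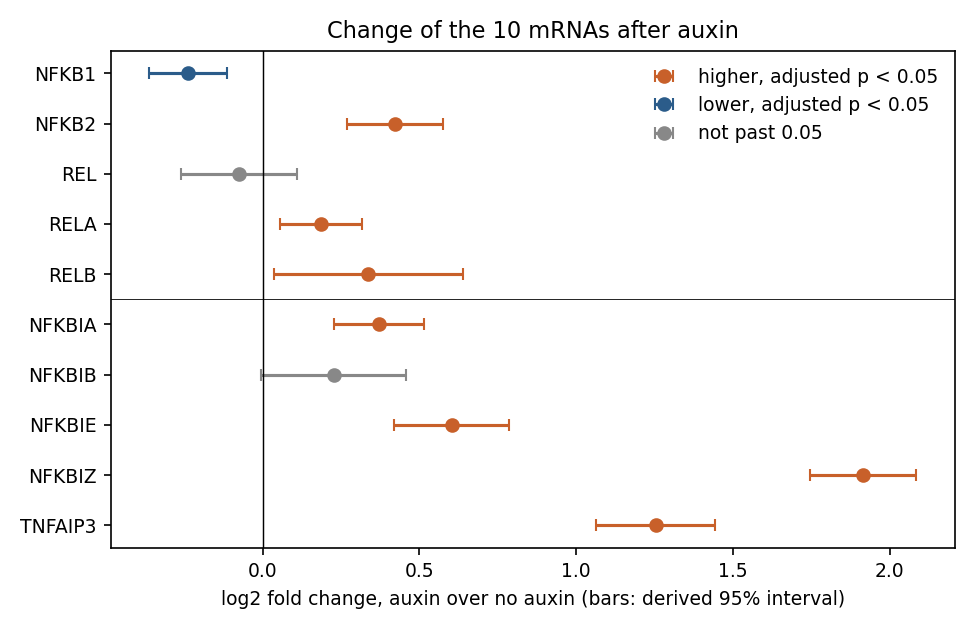
log2 fold change of each mRNA, auxin over no auxin, with 95% intervals derived from the deposited p-values, coloured by direction where the adjusted p was under 0.05. NFKBIZ at 1.92 and TNFAIP3 at 1.25 stand apart, the other risers lie between 0.19 and 0.60, NFKB1 is at -0.24, and the intervals of REL and NFKBIB include 0.

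The order of the members by derived level per kilobase was RELA at 1267, NFKBIB at 1170, NFKBIA at 673, NFKB1 at 552, NFKB2 at 534, NFKBIE at 177, REL at 169, NFKBIZ at 82.1, TNFAIP3 at 79.9 and RELB at 56.9 without auxin. With auxin NFKBIZ moved from rank 8 to rank 6 at 310, above NFKBIE at 269, TNFAIP3 came to 191, and REL moved from rank 7 to rank 9 at 160. The spread over samples of each level is unknown, so close neighbours such as NFKB1 and NFKB2 without auxin, or NFKBIE and REL, cannot be said to differ. A separate column of the deposited table, which names no group, held the log2 level per kilobase of whichever group is the numerator. For the 10 members it differed from the derived numerator level by at most 0.0022 on the log2 scale, which does not show which group that is.

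**Figure D3:**
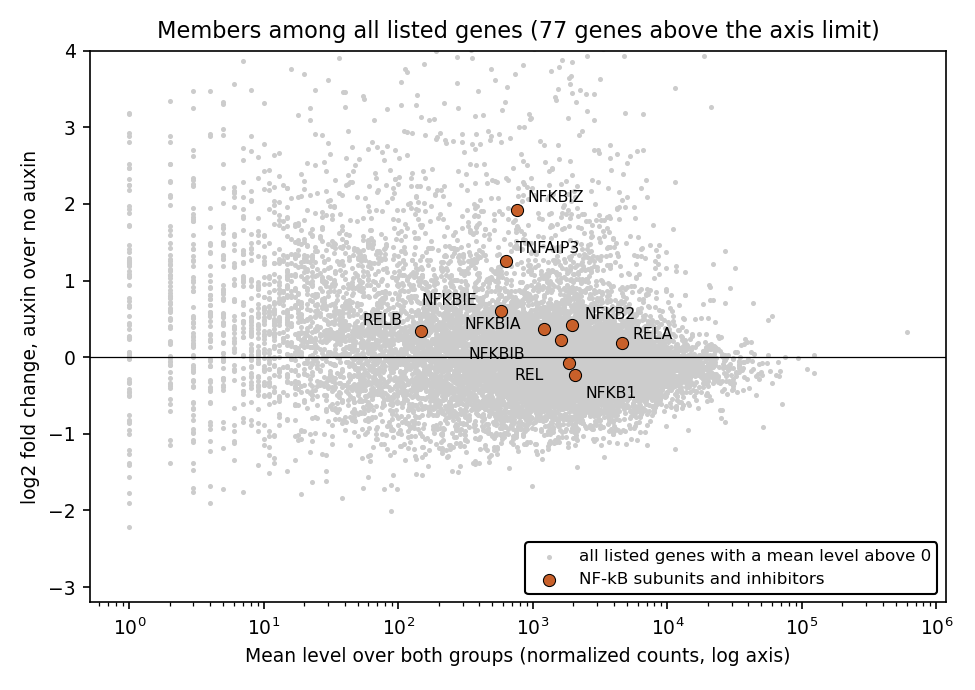
Mean level over both groups (normalized counts, log axis) against log2 fold change for the 14373 listed genes with a mean level above 0 (grey) and the 10 members (orange), with 77 genes above the upper axis limit of 4. NFKBIZ and TNFAIP3 lie above the bulk of genes of like level, and the other members lie within it.

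Promoter sequence was set beside these changes because several members are known NF-kB targets. The 250 bases before each RefSeq start (GRCh38.p14) were searched on both strands for the kappa-B consensus, the motif bound by NF-kB dimers. Overlapping matches were kept. In the table used here 8 of the 10 members had an entry, RELB and NFKBIE having none, and 7 of these 8 held a match before at least 1 of their starts, RELA being the exception. Of all 35116 promoters 9.96% held a match, and of the 10729 listed genes with an entry 15.9% held one before any start.

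The promoters of NFKBIA and the upstream promoter of NFKBIZ are shown whole because no annotated exon overlaps them, with the consensus match in capitals. The match begins 81 bases before the start in NFKBIA (chr14:35404750-35404999, minus strand) and 223 bases before the start in NFKBIZ (chr3:101827740-101827989, plus strand).
NFKBIA: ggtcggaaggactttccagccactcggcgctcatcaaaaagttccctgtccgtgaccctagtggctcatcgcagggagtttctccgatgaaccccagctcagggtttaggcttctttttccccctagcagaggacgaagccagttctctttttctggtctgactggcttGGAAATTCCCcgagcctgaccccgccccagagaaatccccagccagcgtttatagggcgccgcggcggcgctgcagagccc
NFKBIZ: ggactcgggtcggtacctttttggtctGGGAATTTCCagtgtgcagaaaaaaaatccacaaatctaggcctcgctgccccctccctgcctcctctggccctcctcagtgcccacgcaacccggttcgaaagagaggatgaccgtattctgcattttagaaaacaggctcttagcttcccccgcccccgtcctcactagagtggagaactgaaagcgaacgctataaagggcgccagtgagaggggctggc

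For promoters of the other members with a match, and for the second NFKBIZ start, 30 bases around a match are given, 5′ to 3′ on the gene's strand with matches in capitals, so that risers and non-risers can be compared. NFKB2 had further matches, which begin 176 bases before the same start and 107, 106 and 78 bases before an upstream start, and of these the one at 78 is shown as NFKB2 upstream (chr10:102394490-102394519). The TNFAIP3 stretch (chr6:137867188-137867217) holds 2 matches, which begin 67 and 55 bases before the start. Those of NFKBIZ at the start used in the authors' table (chr3:101849265-101849294), NFKB2 (chr10:102395674-102395703), NFKB1 (chr4:102501300-102501329), REL (chr2:60881517-60881546) and NFKBIB (chr19:38899931-38899960) follow.
TNFAIP3: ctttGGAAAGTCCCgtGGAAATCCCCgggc
NFKBIZ: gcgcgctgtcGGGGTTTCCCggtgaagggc
NFKB2: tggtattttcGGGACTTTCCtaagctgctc
NFKB2 upstream: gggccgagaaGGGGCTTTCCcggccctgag
NFKB1: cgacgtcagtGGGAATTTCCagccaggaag
REL: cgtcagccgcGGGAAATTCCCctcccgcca
NFKBIB: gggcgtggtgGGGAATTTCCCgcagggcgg

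Members with a match did not share a direction. The match GGGAATTTCC, on either strand, is held by promoters of NFKBIZ (the upstream one), NFKB1, NFKBIA, NFKBIB and REL. By the authors' deposited table NFKBIZ was 3.77-fold higher, NFKBIA 1.29-fold higher and NFKB1 at 0.848-fold. NFKBIB at 1.17-fold and REL at 0.948-fold did not pass. For NFKBIZ, NFKBIB and REL the start concerned is not the one in the authors' table. Over the listed genes with an entry, a match was held by 16.2% of the 2987 that rose, 17.0% of the 3351 that fell and 14.7% of the 4391 that did not pass. A match is a description of these letters and not a bound site.

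The rest of the pathway was described from 7 lists of genes, 180 in all without the members, of which 130 had a row in the table. Of these 51 rose, 27 fell and 52 did not pass, with a median log2 fold change of 0.09, and 19 rose at least 2-fold while none of the 27 fallers reached that size. The share that passed in either direction, 60.0%, was near the 56.7% of all genes, but the directions were not alike. Rises made up 39.2% of the 130 against 27.8% of all genes, falls 20.8% against 28.9%, and rises of at least 2-fold 14.6% against 7.88%. The lists were chosen with earlier results of these data known. No test was made of these shares or of those of each list below. Receptors and targets together held 25 of the rises, and the lists of signalling proteins went both ways. BCL3, CYLD, TNIP1 and TRAF1 stand in 2 lists each. They were counted once among the 130 and in both of their lists below.

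**Figure D4:**
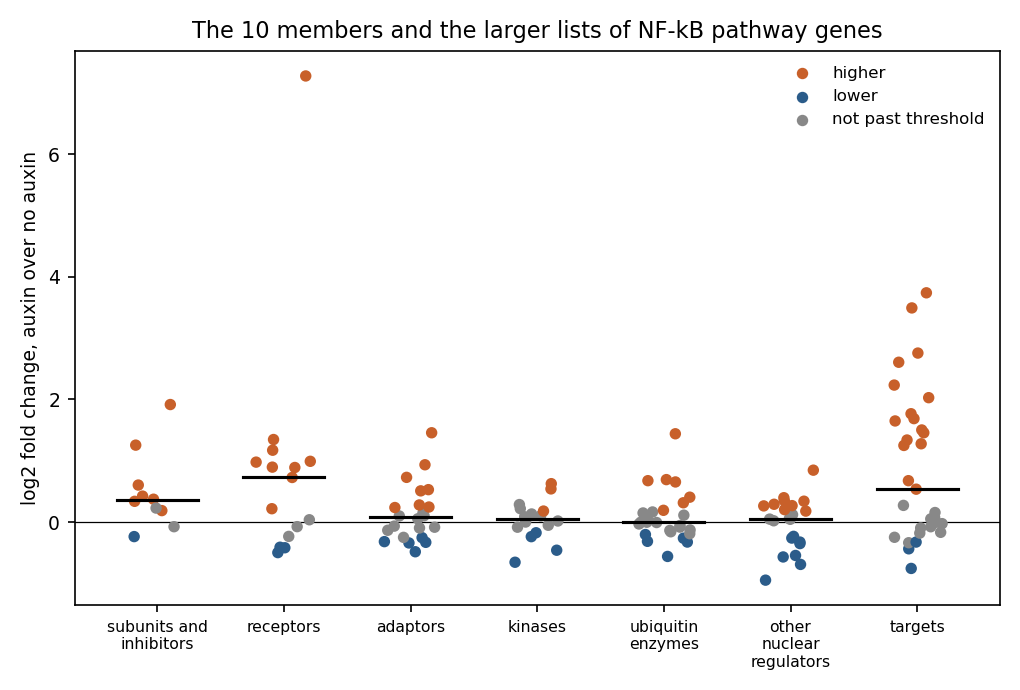
log2 fold change, auxin over no auxin, of each listed gene in the 10 members and the pathway lists of more than 2 listed genes, coloured by whether it rose, fell or did not pass an adjusted p of 0.05, with a bar at each median. The medians of receptors at 0.73 and targets at 0.54 lie above those of the other pathway lists, which run from -0.01 to 0.08, and the point at 7.28 is NGFR.

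Ligands that start NF-kB signalling were hardly represented, with rows for 2 of 14, and TNF and the interleukin 1 genes were not analysed here. TNFSF12 (TWEAK), a ligand that can engage the non-canonical branch, stood at 1.22-fold and did not reach the threshold (adjusted p 0.367) by the authors' deposited table. TNFSF12 was named after its value was seen.

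Receptors had 9 of 15 listed genes higher and 3 lower, with a median log2 fold change of 0.73. As shares, 60% were higher and 20% lower, against 27.8% and 28.9% of all genes. NGFR, a member of the TNF receptor family that can signal to NF-kB, rose 155-fold from a derived level of 108 to 16730 by the authors' deposited table. The interleukin 1 receptor chain IL1R1 was 2.54-fold higher (adjusted p 4.32e-10) by the authors' deposited table. Its derived level was 45.2 without auxin and 115 with auxin. CD40, named after its value was seen, was 1.99-fold higher by the authors' deposited table. TNFRSF19 and TNFRSF13C were at 0.708 and 0.748-fold by the authors' deposited table. TNFRSF1A, the main TNF receptor and the other faller, was at 0.752-fold (adjusted p 9.04e-09) by the authors' deposited table and was named after its value was seen.

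Adaptors, which join receptors to kinases, had 8 of 22 higher and 5 lower. As shares, 36.4% were higher and 22.7% lower, against 27.8% and 28.9% of all genes. TRAF1, itself an NF-kB target, was 2.74-fold higher and MALT1, the protease of the CARD-BCL10-MALT1 complex, 1.91-fold higher by the authors' deposited table. RIPK1, the scaffold kinase of the TNF receptor complex, was at 0.715-fold and FADD at 0.789-fold by the authors' deposited table. The adaptor median was 0.08. TRAF3, which presents NIK for degradation, was at 0.801-fold (adjusted p 1.26e-07) and its partner TRAF2 at 1.18-fold (adjusted p 0.0114) by the authors' deposited table. BIRC2 (cIAP1), a ubiquitin ligase that acts with them, stood at 1.04-fold without passing (adjusted p 0.588) by the authors' deposited table. TRAF3, TRAF2 and BIRC2 were added to the text once their values were known.

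Kinases had 3 of 16 higher and 4 lower, with a median of 0.05. As shares, 18.8% were higher and 25% lower, against 27.8% and 28.9% of all genes. Neither share was above that of all genes. Both catalytic IKK kinases were among the fallers. IKBKB (IKK beta) was at 0.727-fold (adjusted p 1.34e-09) and TAB1, a partner of the kinase TAK1, at 0.635-fold (adjusted p 4.32e-15) by the authors' deposited table. The other fallers, CHUK (IKK alpha, the kinase that NIK activates in the non-canonical branch) at 0.848-fold and MAP3K7 (TAK1) at 0.886-fold by the authors' deposited table, were named after their values were seen. IKBKG (NEMO), likewise named later, did not pass, at 0.943-fold (adjusted p 0.586) by the authors' deposited table. The higher genes included MAP3K8 (TPL2), which p105 holds inactive, at 1.54-fold, and MAP3K14 (NIK) at 1.45-fold by the authors' deposited table.

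Ubiquitin enzymes, which build and remove the chains on which the pathway runs, had 7 of 26 higher and 5 lower, with a median of -0.01. As shares, 26.9% were higher and 19.2% lower, against 27.8% and 28.9% of all genes. PELI1, a ubiquitin ligase of Toll-like receptor signalling, was 2.71-fold higher and SKP1, part of the ligase that destroys I-kappa-B, 1.61-fold higher by the authors' deposited table. UBA3, which activates NEDD8, was at 0.678-fold and SHARPIN, of the linear chain ligase, at 0.797-fold by the authors' deposited table. CYLD, a deubiquitinase that like A20 limits the pathway, was 1.60-fold higher by the authors' deposited table and was named after its value was seen. Partners of A20 did not follow it alike. By the authors' deposited table RNF11 was at 1.24-fold and TAX1BP1 at 1.14-fold, which passed, while TNIP1 at 0.997-fold and ITCH at 0.876-fold did not (adjusted p 0.969 and 0.0528), all named after their values were seen.

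Other nuclear regulators had 9 of 22 higher and 8 lower, with a median of 0.05. As shares, 40.9% were higher and 36.4% lower, against 27.8% and 28.9% of all genes. SIRT1, a deacetylase of RELA, was 1.80-fold higher and COMMD1, which promotes loss of RELA from chromatin, 1.32-fold higher by the authors' deposited table. SETD7, a lysine methyltransferase, was at 0.518-fold and the deacetylase HDAC3 at 0.619-fold by the authors' deposited table. The other atypical I-kappa-B proteins did not share the size of the NFKBIZ change. NFKBID was at 1.20-fold (adjusted p 5.65e-03) and BCL3 at 0.797-fold (adjusted p 0.0458) by the authors' deposited table, and both names were added once the values were known.

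Known NF-kB target genes had 16 of 31 higher and 3 lower, and 14 of the 16 rose at least 2-fold, with a median of 0.54. As shares, 51.6% were higher and 9.68% lower, against 27.8% and 28.9% of all genes. Rises of at least 2-fold made up 45.2%, against 7.88% of all genes. This list too was chosen with earlier results known, and its shares were not tested. HBEGF, a growth factor of the EGF family, was 13.4-fold higher and the stress gene GADD45B 11.3-fold higher by the authors' deposited table. The derived levels went from 191 to 2553 for HBEGF and from 369 to 4147 for GADD45B. LIF, a cytokine, was at 0.592-fold (adjusted p 2.76e-05) and F3 (tissue factor) at 0.739-fold (adjusted p 0.0212) by the authors' deposited table. The third faller was BCL3. The inflammatory chemokines CXCL2 and CXCL3, singled out once their values were known, had mean levels of 27 and 38 and stood at 0.791 and 0.882-fold without passing (adjusted p 0.408 and 0.618) by the authors' deposited table. Of the 50 targets 19 were not analysed here, among them CXCL8, IL6, CCL2, ICAM1 and BIRC3. Many of these targets are also driven by other pathways, and their part in the counts was not tested.

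The targeted gene INTS8 stood at 1.28-fold (adjusted p 1.33e-07) by the authors' deposited table, which does not show the loss of its protein. Of 8 markers of the embryonic kidney 7 had rows, of which 2 rose, LHX1 at 5.39-fold among them by the authors' deposited table, and 2 fell, with a summed derived level of 11450 without auxin and 11920 with auxin. Of 8 immune cell markers, including PTPRC, none had a row. Of 5 fibroblast markers only PDGFRA had one, with derived levels of 111 and 171, and it rose 1.54-fold (adjusted p 6.47e-04) by the authors' deposited table. Of 5 epithelial markers 4 had one, with summed derived levels of 4243 and 5431. KRT8 and KRT18 rose, at 1.77 and 1.24-fold by the authors' deposited table, and no epithelial marker fell. Their part in the changes of the members was not tested.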

How the data were processed

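RNA-seq of rRNA-depleted RNA was made with a directional kit, per the labels' protocols, in 3 libraries with and 3 without auxin. STAR 2.7.3a and DESeq2 were used with hg38 and dm6, per the submitters' processing notes, with no role given. The counter, annotation, scaling and model are not given in the sources used here. Per the file headers, the deposited columns are a base mean, treated as a score since its values are whole numbers, and a fold change (a ratio). Per the file headers there are also a log2 fold change, a p-value, an adjusted p, a regulation mark and a log2 expression value. That log2 column, deposited without a group name, matched the derived level per kilobase of the numerator group within 0.02 in 12195 of 12195 genes at mean levels of 100 or more, with a largest difference of 0.0165, and the other group in 507.

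Values per library were not used here, so the test was the authors' deposited adjusted p at 0.05 over all genes, which matched Benjamini-Hochberg over the 14479 genes with p below 1 (largest relative difference 0.00777). Depth per library is unknown. Group levels were derived from mean and fold change, assuming groups of equal size. Standard errors were derived from log2 fold change and p, assuming a two-sided Wald test, and are upper limits where p is listed as 0. Members and lists were chosen with earlier results of these data known. Named genes were the 10 members, INTS8 and, per list, the 2 largest rises and 2 largest falls past 0.05 with a mean level of at least 20. SOD2 has more than 1 row and entered by its most abundant one. Overlaps with the members' spans in the authors' table came from GENCODE 29, and promoters from RefSeq. Only NFKBIA and NFKBIE have the same span in GENCODE 29, and bases outside the authors' spans were not checked for overlaps. One ligand gene is not reported here. The promoter bases after the start were left out. The alternatives were an adjusted p of 0.01, folds of 1.5 and 2, a mean level of at least 100, centring, protein-coding genes alone, and a Wald test against a fold of 1.5.

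The computations were tested on simulated data of 14423 genes, 200 of them changed, a far smaller share than the 56.7% that passed here. Calls after centring found 86.0% of log2 changes of 0.5 and 99.0% of those of 1.0. They also took in 0.0633% of the unchanged genes. The deposited calls reported here were not tested in this way. Computations ran in Python 3.11.15 (matplotlib 3.10.9, pandas 2.3.3, numpy 2.4.6, scipy 1.17.1).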

Additional observations from a re-analysis of the deposited data

How the results depend on the processing

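The counts of members and pathway genes kept within 1.5 times of those reported with an adjusted p of 0.01, a mean level of at least 100, centring and protein-coding genes alone. Limits on size lowered them by construction. With a change of at least 1.5-fold, 3 members rose and 0 fell, and 31 pathway genes rose and 4 fell. With at least 2-fold, 2 members rose and 0 fell, and 19 pathway genes rose and 0 fell. In a Wald test against a fold of 1.5, 2 members rose and 0 fell, and 21 pathway genes rose and 1 fell. These limits left 13.2%, 7.88% and 7.20% of all genes as rises, and 7.72%, 1.36% and 2.21% as falls, in the same order. At an adjusted p of 0.01 the calls of RELA (0.0107) and RELB (0.0494), and among the other named genes that of F3 (0.0212), were lost. Centring subtracted -0.0302 and ended no call among the members. No named gene changed direction in any alternative run, an outcome fixed in advance. Only centring altered the fold changes, by less than the smallest named change (REL, log2 -0.0763). Leaving out replicates was not run. No paired analysis was possible because the table holds no values per library. Depth per library is unknown, so what it limits cannot be given; the derived SE of the members ran from 0.0631 for NFKB1 to 0.154 for RELB on the log2 scale.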

Other observations

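SOD2, the mitochondrial superoxide dismutase and an NF-kB target, has 2 rows under 1 symbol. By the authors' deposited table the row of mean level 5640 was 2.53-fold higher and the row of mean level 55 was 2.08-fold higher (adjusted p 1.18e-107 and 1.23e-04). The shorter gene lies within the longer on the same strand, so how reads were split between them is uncertain.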
